A study of Mus musculus with 17 samples.

Results

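The proteasome genes of mouse haematopoietic stem cells (HSCs) were followed across old and young animals and across 2 drugs that act on mitochondria. The genes were the protein-coding genes whose symbol starts with Psma, Psmb, Psmc, Psmd, Psme, Psmf or Psmg followed by a digit, in the GENCODE M21 annotation of GRCm38. The rule found 50 genes of the 54838 in the count tables, and all 50 passed the filter on low counts. They comprised 14 subunits of the constitutive 20S ring, 17 subunits of the 19S cap, 3 inducible catalytic subunits, 4 chaperones of 20S assembly, 3 chaperones of 19S assembly, 5 activators, 1 inhibitor, a testis form of an alpha subunit (Psma8), a thymic catalytic subunit (Psmb11) and Psmc3ip. Psmc3ip shares the letters of the symbol but encodes a protein of meiotic recombination, and it is counted among the 50 while being no part of the proteasome.

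RNA was sequenced in bulk from HSCs sorted from c-kit-enriched bone marrow of C57BL/6 Jrj mice as live CD150+ CD48- cells within the Sca1+ cKit+ compartment without lineage markers. Old Mito-Q libraries (n = 5) came from mice over 18 months old that had received 5 daily injections of 2 mg/kg Mito-Q, an antioxidant quinone that accumulates in mitochondria. Old control libraries (n = 3) came from mice over 18 months old, young CCCP libraries (n = 5) from mice of 8 to 12 weeks given 1 injection of 0.3 mg/kg CCCP, an uncoupler of mitochondrial respiration, and young control libraries (n = 4) from mice of 8 to 12 weeks. The labels give neither a vehicle for the controls, nor the time between the last injection and the sort, nor whether each library is a separate mouse or a pool, so p-values measure the spread between libraries.

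The proteasome is the protease that degrades proteins tagged with ubiquitin in the cytosol and nucleus. Its 20S core is a stack of rings built from alpha subunits (Psma genes) that gate the channel and beta subunits (Psmb genes), of which Psmb5, Psmb6 and Psmb7 carry the cutting sites. Cells exposed to interferon replace these by Psmb8, Psmb9 and Psmb10 to form the immunoproteasome, which trims peptides for presentation on MHC class I. The 19S cap recognises ubiquitin chains and unfolds the substrate with a ring of ATPases (Psmc genes), while other activators, PA28 among them, open the core without ubiquitin. HSCs are known to keep protein synthesis low and to depend on removal of damaged proteins.

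Between 5649611 and 8120443 reads were assigned to genes in each library. Levels are given as CPM, counts scaled to a common library size, on which 3 reads, the limit that a count of 0 allows, equal 0.369 to 0.531 CPM for counting error only. Reads that fell in no annotated gene made up 17.8% to 60.2% of the reads. Both extremes lay in groups compared here: young CCCP 3 had 60.2% and old control 1 had 58.4%, while old control 2 and old control 3 had 17.8% and 20.9%, the lowest shares of the 17 libraries. Across genes, the median rank correlation of a library with the rest was lowest for young CCCP 3 at 0.671, for old control 1 at 0.757 and for young control 3 at 0.772, and young control 3 had counts for the fewest genes, 17067. All 10 HSC markers on the list were present, with a summed level of 3053.0 to 3842.8 CPM in old Mito-Q, 2837.3 to 3041.0 CPM in old control, 1692.1 to 4418.0 CPM in young CCCP and 2571.1 to 3956.1 CPM in young control libraries. Cd48, which the sort gated against, stayed at or below 19.2 CPM.

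Levels differed widely between subunits that occupy equal numbers of places in the complex. Per kilobase of merged exons, Psmb2 and Psma6, a beta and an alpha subunit of the 20S ring, ranked first and second of the 50 genes in all 4 groups. Psmb2 averaged 454 ± 207 CPM per kb in old Mito-Q, 649 ± 360 in old control, 199 ± 68.7 in young CCCP and 381 ± 181 in young control libraries (SD, n = 5, 3, 5 and 4). Psma6 averaged 313 ± 149, 408 ± 206, 173 ± 16.9 and 277 ± 114 CPM per kb in the same groups. In each group the difference between these neighbours was smaller than the SD of Psmb2. Psmb7, the trypsin-like catalytic subunit, was the lowest of the 14 ring subunits in every group, at 14.8 ± 7.31, 13.4 ± 3.37, 9.72 ± 2.24 and 14.2 ± 2.84 CPM per kb. Exons of Psmb7 overlap those of Nek6 on the opposite strand over 11.8% of their length, and the strand setting of the counting was not stated. Within the 19S cap, Psmd7 of the lid led in young controls at 111 ± 13.6 CPM per kb, and Psmd13 and Psmd3, also lid subunits, were lowest at 14.6 ± 8.69 and 14.8 ± 7.58. The median over the ring subunits, taken in each library and averaged over the 4 young controls, was 95.2 CPM per kb with merged exons and 165 with the longest transcript as the length. With the longest transcript Psmb2 stayed first in all 4 groups. Psma6 then had rank 3 in old Mito-Q, old control and young CCCP libraries, behind Psmb6, and rank 2 in young controls.

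**Figure D1:**
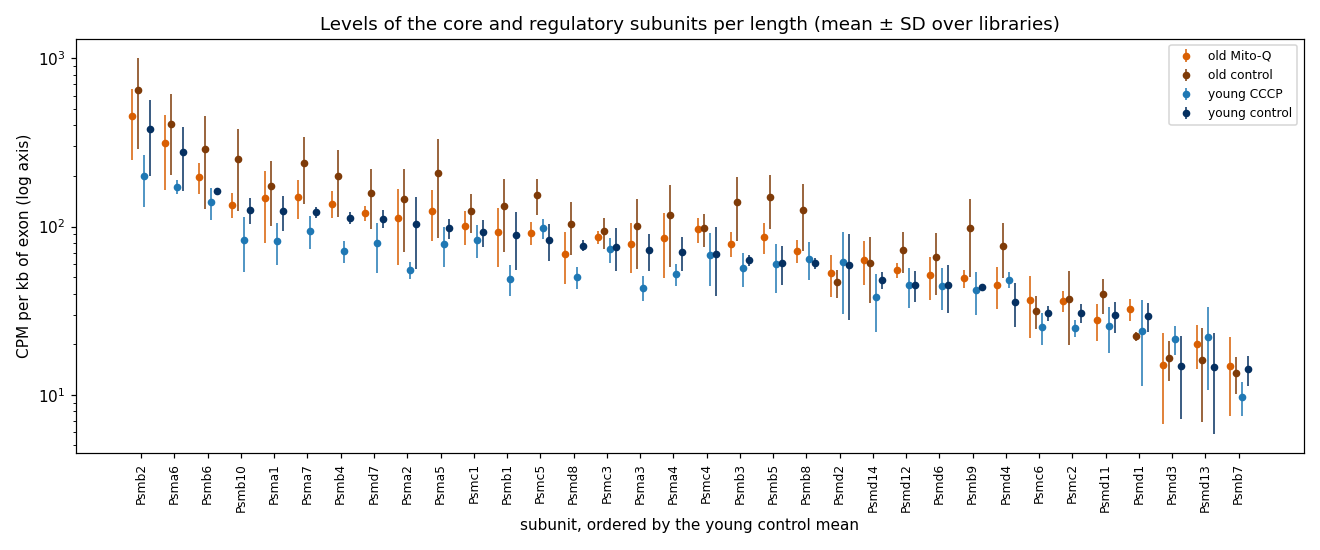
Mean level of each 20S ring, 19S and inducible subunit on a log axis, in CPM per kilobase of merged exons, by group. Psmb2 is highest and Psmb7 lowest among the ring subunits in each of the 4 groups.

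In HSCs of old control mice, 2 proteasome genes rose relative to young controls and none fell: Psmg1, which encodes the chaperone PAC1 of 20S ring assembly, and Psme2, which encodes the beta chain of the activator PA28. Across all genes tested by edgeR's quasi-likelihood test at an adjusted p below 0.05, 1.69% were called, 0.522% higher and 1.17% lower. The rest of the family leaned the same way without passing that test: 45 of the 50 log2 fold changes were positive, with a median of 0.57, against 55.4% positive and a median of 0.17 over all genes tested. At an unadjusted p below 0.05, 18 of the 50 were higher and 0 lower, where 6.77% and 7.45% of all genes were. The 18 became 8 without old control 3, against 5.33% of all genes, 11 without old control 2, against 6.27%, and 30 without old control 1, against 7.02%. In 8 of the 50 every old control library lay above every young control library, and in 0 below, against 5.04% and 6.5% of all genes. In bulk RNA, fewer cells of a type and less RNA per cell cannot be told apart.

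**Figure D2:**
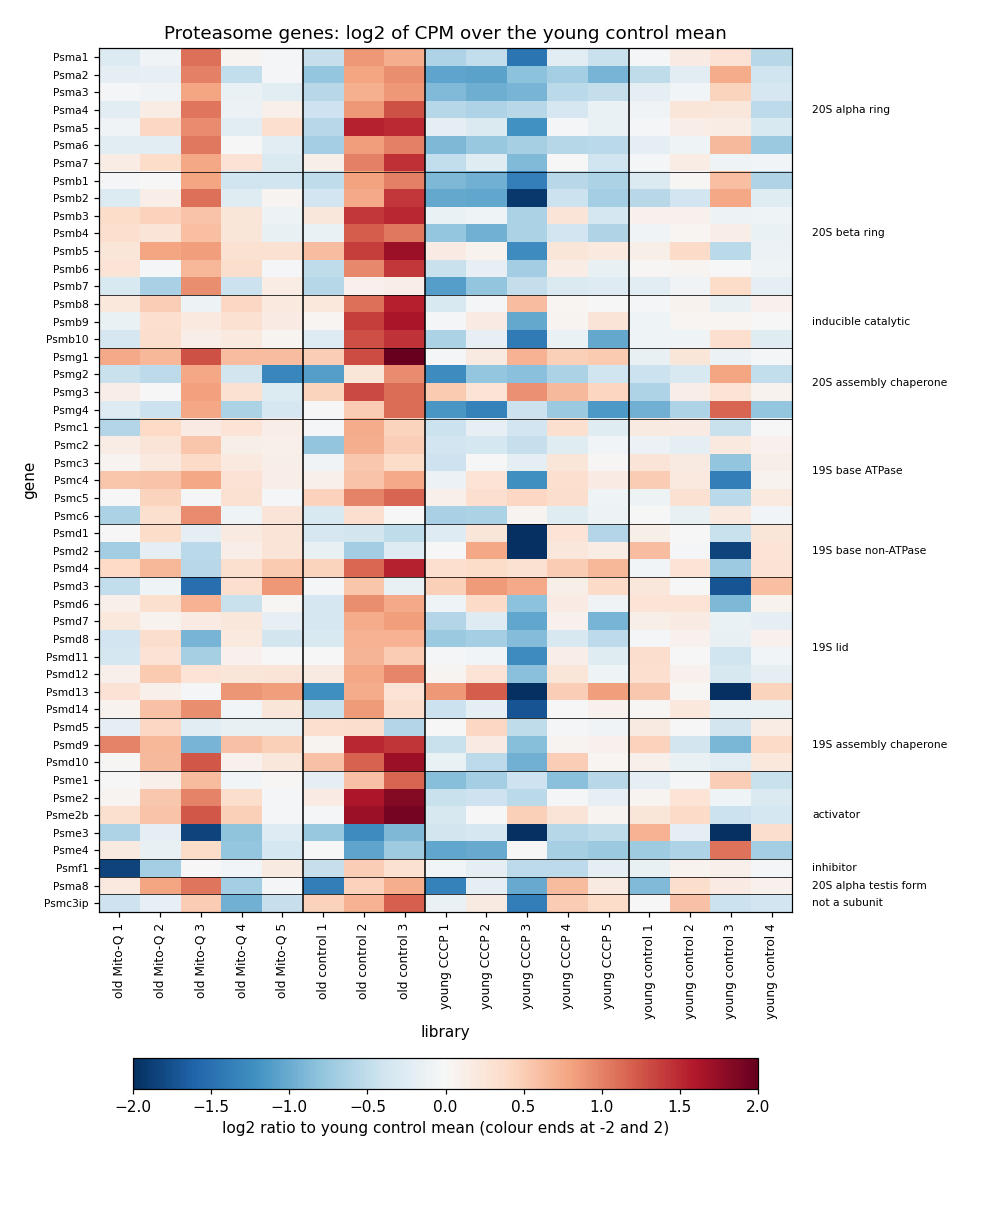
Level of each proteasome gene except Psmb11 in each of the 17 libraries, as log2 of its CPM over the gene's mean in young controls (colour, which ends at -2 and 2), with genes in rows by role and libraries in columns by group. Old control 2 and old control 3 are high over most 20S and inducible rows, and old control 1 is not.

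The sequences upstream of both called genes are shown with those of 1 inducible and 1 constitutive catalytic subunit, Psmb9 and Psmb5. They are not a pair, as Psmb9 is set against Psmb6 here and Psmb5 against Psmb8. Each line gives the 250 bases before the start in the RefSeq table for GRCm38.p6, 5′ to 3′ along the gene, and capitals mark matches on either strand to any of 8 short motifs. Psmg1 covers chr16:95990961-95991210, Psme2 covers chr14:55591102-55591351 (the more upstream of 2 windows), Psmb9 covers chr17:34187331-34187580 and Psmb5 covers chr14:54617996-54618245, all on the minus strand. GENCODE M21 places some starts elsewhere. Its Psmb9 gene spans 34181987 to 34187764, so the Psmb9 window lies inside the gene. The Psme2 and Psmb5 windows reach slightly into their M21 genes, which start at 55591113 and 54618022.
Psmg1: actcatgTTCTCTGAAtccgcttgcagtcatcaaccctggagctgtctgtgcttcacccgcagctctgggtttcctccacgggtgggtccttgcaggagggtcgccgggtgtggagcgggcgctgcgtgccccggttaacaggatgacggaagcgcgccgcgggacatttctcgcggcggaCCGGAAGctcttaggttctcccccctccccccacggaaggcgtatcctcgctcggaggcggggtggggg
Psme2: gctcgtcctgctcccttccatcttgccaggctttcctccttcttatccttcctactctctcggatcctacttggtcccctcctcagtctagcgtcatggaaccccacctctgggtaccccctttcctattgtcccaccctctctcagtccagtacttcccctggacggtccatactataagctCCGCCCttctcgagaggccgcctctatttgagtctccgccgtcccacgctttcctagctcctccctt
Psmb9: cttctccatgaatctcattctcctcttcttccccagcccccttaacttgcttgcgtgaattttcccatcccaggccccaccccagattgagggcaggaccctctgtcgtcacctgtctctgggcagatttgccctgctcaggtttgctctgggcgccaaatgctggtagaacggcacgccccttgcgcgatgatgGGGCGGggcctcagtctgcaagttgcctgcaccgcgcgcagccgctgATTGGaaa
Psmb5: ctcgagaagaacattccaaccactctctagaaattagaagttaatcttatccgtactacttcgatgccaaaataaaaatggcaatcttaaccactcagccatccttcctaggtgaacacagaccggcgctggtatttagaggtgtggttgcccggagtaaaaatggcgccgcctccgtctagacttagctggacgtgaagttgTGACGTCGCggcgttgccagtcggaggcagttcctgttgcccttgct
The capitals in Psmg1 are a STAT motif (TTCNNNGAA) and an ETS motif (CCGGAAG). Psme2 and Psmb9 hold an SP1 motif (GGGCGG, printed as its reverse complement in Psme2), and Psmb9 also holds a CCAAT box (ATTGG). Psmb5 holds the core of an antioxidant response element (TGACNNNGC), the letters read by NFE2L1 and NFE2L2. A window was found for 42 of the 50 genes, and a gene was counted for a motif if any of its windows held it, here and among all 27025 genes of the table. The ETS motif was in 13 of the 42, or 31%, against 7.83% of all genes, and the SP1 motif in 22, or 52.4%, against 35.4%. The CCAAT box was in 35.7% against 37.5%, the antioxidant core in 11.9% against 11.5%, the interferon-stimulated response element (GAAANN followed by GAAA) in 7.14% against 3.46%, the STAT motif in 4.76% against 8.13%, the nuclear respiratory factor 1 motif (GCGCATGC) in 4.76% against 2.56% and the YY1 motif (CCGCCAT) in 2.38% against 2.58%. The interferon element was found in Psmb3, Psmd4 and Psmd9 and in none of the windows of Psmb8, Psmb9 and Psmb10, where no match says only that these letters are not in the window. A match is a description of the letters and not a bound site.

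Psmg1 (ENSMUSG00000022913, chromosome 16, 95979933 to 95990960, minus strand) measured 92.3, 162 and 261 CPM in old controls, against 59.4, 78.03, 60.7 and 65.1 CPM in young controls. All 3 old control libraries lay above all 4 young ones, with old control 1 the lowest. The log2 fold change was 1.38 ± 0.33 (SE), with an adjusted p of 0.0248 by edgeR. Psme2 (ENSMUSG00000079197, chromosome 14, 55587441 to 55591113, minus strand) measured 148, 405 and 471 CPM in old controls, against 137, 161, 124 and 108 CPM in young controls. Old control 2 and 3 were far above every young library, while old control 1 lay among them. Its log2 fold change was 1.36 ± 0.34, with an adjusted p of 0.0344. Psme2b, a near copy of Psme2 with which reads could be shared, had a log2 fold change of 1.42 ± 0.46 at an adjusted p of 0.130, and Psme1, the alpha chain of PA28, 0.62 ± 0.31 at an adjusted p of 0.360.

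Both calls depended on which libraries entered. Without young control 1, young control 4, old control 2 or old control 3, each left out in turn, 0 of the 50 genes were called. Calls over all genes were then 1.01%, 1.06%, 0.434% and 0.488%, in that order, against 1.69% with every library. Without young control 2 or young control 3, 1 of the 50 was called, against 1.27% and 1.98% of all genes. Without old control 1, the library with 58.4% of its reads in no gene, 15 were called higher and 0 lower, against 1.5% and 1.04% of all genes. Those 15 were Psmg1, Psme2, Psme2b, the ring subunits Psma5, Psma7, Psmb3, Psmb4, Psmb5 and Psmb6, the inducible Psmb8, Psmb9 and Psmb10, and Psmc5, Psmd4 and Psmd10 of the 19S cap and its assembly. Old control 1 was the lowest of its group for 43 of the 50 genes, against 28.5% of all genes tested, and old control 3 the highest for 29. With the share of reads in no gene as a covariate, an alternative chosen after seeing the data, 3 were called higher, Psmg1, Psme2 and Psmb9, against 0.514% of all genes, and the median of the 50 was 0.42. DESeq2 called 15 of the 50 higher and 0 lower, where it called 1.39% and 1.65% of all genes. For DESeq2 all genes are the 47061 with a p-value, here and below, against the 24523 that passed the filter for edgeR and limma-voom. Any of the 47061 that DESeq2 left without an adjusted p, as it can for genes of low count, counted as not called. Its shares over all genes are therefore not on the same footing as those of edgeR. Limma-voom with quality weights called 28 higher and 1 lower, Psme3, where it called 7.12% and 6.25% of all genes.

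**Figure D3:**
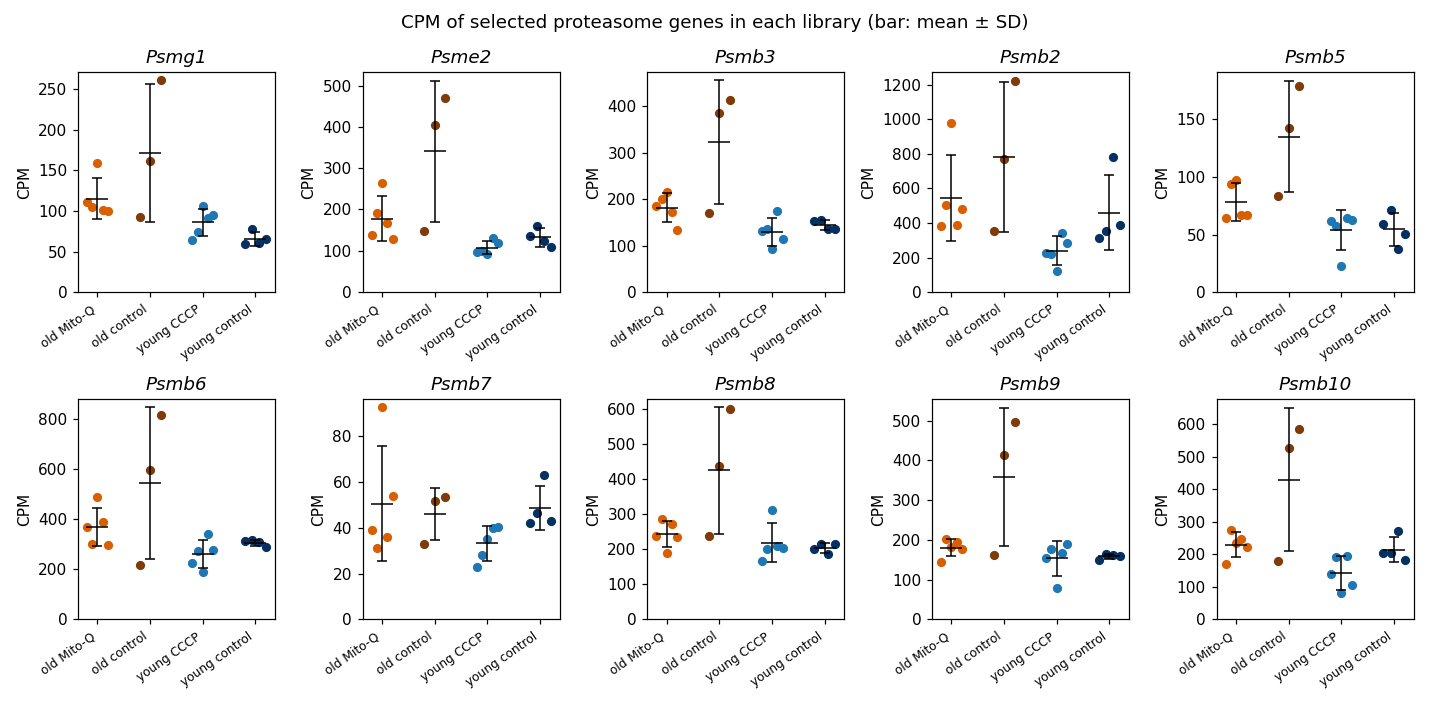
CPM of 10 proteasome genes in every library, 1 point per library, by group, with a bar at each group's mean ± SD. In Psme2 the old control points spread from the level of the young controls up to several times it, with 148 CPM in old control 1 and 471 in old control 3. In Psmb7 no old control point exceeds the highest young control, at 53.4 against 62.9 CPM.

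The 14 subunits of the 20S ring had positive log2 fold changes in old controls for 13, with a median of 0.75 and 7 at an unadjusted p below 0.05. Summed over the ring, levels were 2854.5, 7000.4 and 8278.9 CPM in old controls, against 3254.7, 3668.6, 4879.4 and 2920.1 CPM in young controls. Old control 2 and 3 lay above every young library and old control 1 below all of them. The alpha subunits Psma1 to Psma7 had log2 fold changes of 0.47 to 1.09. The structural beta subunit Psmb3 came closest to a call within the ring, at 169.7, 386 and 413 CPM in old controls against 153, 155, 136 and 136 CPM in young controls. The groups did not overlap, and the log2 fold change was 1.16 ± 0.31 with an adjusted p of 0.0515.

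Among the constitutive catalytic subunits none passed the adjusted test. Psmb5, the chymotrypsin-like site, measured 83.7, 142 and 179 CPM in old controls against 58.9, 71.1, 37.6 and 50.5 CPM in young controls, which did not overlap (log2 fold change 1.31 ± 0.37, adjusted p = 0.0708). Psmb6, the caspase-like site, measured 216, 597 and 817 CPM in old controls against 312, 317, 309 and 289 CPM in young controls, with old control 1 below the young range (0.83 ± 0.33, adjusted p = 0.250). Psmb7 measured 32.7, 51.8 and 53.4 CPM in old controls against 42.0, 46.4, 62.9 and 43.0 CPM in young controls, with overlap, although old control 1 lay below all young controls and young control 3 above all old controls (-0.08 ± 0.40, adjusted p = 0.966). The sign of the Psmb7 value turned to 0.02 with upper-quartile scaling and to 0.17 without old control 1.

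All 3 inducible catalytic subunits had an unadjusted p below 0.05 in old controls and none passed the adjusted test. Psmb8 measured 237, 438 and 598 CPM in old controls against 201, 215, 185 and 216 CPM in young controls, without overlap (log2 fold change 1.06 ± 0.30, adjusted p = 0.0763). Psmb9 measured 163, 414 and 496 CPM in old controls against 150.3, 164, 163 and 159 CPM in young controls, where old control 1 lay within the young range (1.17 ± 0.33, adjusted p = 0.0752). Psmb10 measured 179.8, 526.5 and 585 CPM in old controls against 203, 203, 271 and 182 CPM in young controls, where old control 1 was below all young libraries (1.00 ± 0.36, adjusted p = 0.178). Exons of Psmb8 and Psmb9 overlap those of Gm20496 and Tap1 on the opposite strand over 14.7% and 5.79% of their length.

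Set against the constitutive subunit whose place each takes, the inducible subunits had ratios whose differences between old and young controls varied in sign. The log2 ratio of Psmb8 to Psmb5, per kb of merged exons, was -0.41, -0.29 and -0.17 in old controls against -0.14, -0.32, 0.39 and 0.18 in young controls, a difference in means of -0.32 with overlap. With the longest transcript as the length it was 0.41, 0.54 and 0.65 in old controls against 0.68, 0.51, 1.21 and 1.01 in young controls. The sign of this ratio thus depended on the length used, while the difference in means stayed at -0.32. Psmb9 to Psmb6 was -1.38, -1.49 and -1.69 in old controls against -2.02, -1.92, -1.89 and -1.83 in young controls, a difference of 0.39 in which all 3 old libraries lay above all 4 young ones, old control 1 included. Psmb10 to Psmb7 was 3.46, 4.35 and 4.46 in old controls against 3.28, 3.13, 3.11 and 3.09 in young controls, a difference of 0.94 and again without overlap. These ratios were given no test.

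The 19S cap had smaller values than the ring. Of its 17 subunits 15 had a positive log2 fold change in old controls, with a median of 0.42 and 3 at an unadjusted p below 0.05, and the difference between cap and ring was not tested. The ATPases Psmc1 to Psmc6 ran from 0.04 to 0.90, the last being Psmc5, whose 158, 229 and 260.3 CPM in old controls lay above the 108, 143, 79.6 and 132 CPM of young controls. The lid subunits ran from 0.13 to 0.68. The ubiquitin receptor Psmd4 of the base had 1.11 ± 0.33 at an adjusted p of 0.0917, with 136, 222 and 291 CPM in old controls against 96.7, 121, 60.3 and 123 CPM in young controls. The large scaffold subunits of the base, Psmd1 and Psmd2, had negative values of -0.40 ± 0.40 and -0.35 ± 0.48. Summed 19S levels were 2384.1, 3946.4 and 3826.9 CPM in old controls against 3046.2, 2821.7, 1867.9 and 2806.7 CPM in young controls. Here old control 1 lay inside the young range, unlike in the ring sums, where it lay below it. The ratio of summed 19S to summed 20S CPM was 0.84, 0.56 and 0.46 in old controls against 0.94, 0.77, 0.38 and 0.96 in young controls, which overlapped, with old control 1 above young control 2 and young control 3 below all others.

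Among assembly factors and regulators, Psmd10, known as gankyrin and a chaperone of the 19S base, measured 73.0, 109.9 and 160.0 CPM in old controls against 52.0, 44.2, 42.2 and 56.3 CPM in young controls, without overlap, with a log2 fold change of 1.23 ± 0.39 and an adjusted p of 0.116. Psmg2, the partner of Psmg1 in the PAC1 and PAC2 pair, had 0.26 ± 0.45. Psmg3 and Psmg4, which form another assembly pair, had 1.00 ± 0.49 and 0.62 ± 0.46. The nuclear activator Psme3 (PA28 gamma) and Psme4 (PA200) had negative values of -0.96 ± 0.55 and -0.52 ± 0.45, and the inhibitor Psmf1 (PI31) had 0.17 ± 0.36. None of these passed the adjusted test.

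**Figure D4:**
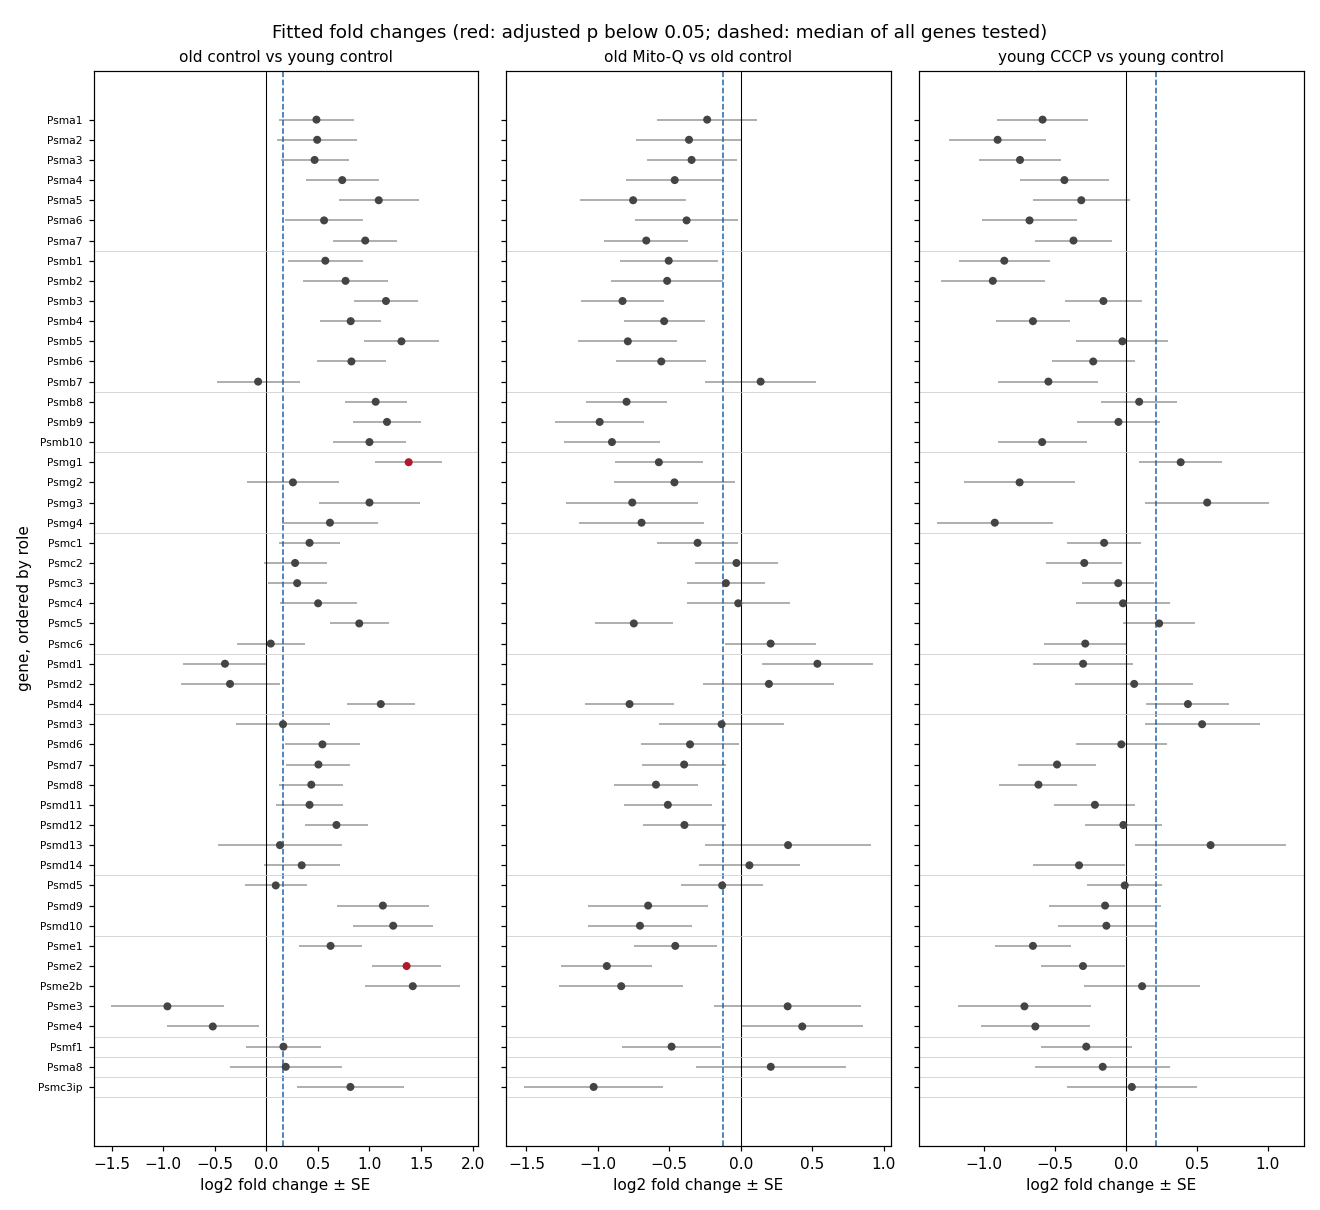
Log2 fold change with SE of each proteasome gene except Psmb11 in the comparisons, with genes in rows by role, a dashed line at the median of all genes tested, and the called genes in red. Psmg1 and Psme2 in old control versus young control are the called genes, and the ring subunits lie below the dashed line in young CCCP versus young control.

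Several technical measures moved with the higher values in old controls. Transcript length was one, in a split at the members' median of 1895 bases of longest transcript that was chosen after values were seen. The 25 shorter proteasome genes had positive log2 fold changes in all 25, with a median of 0.82, where 3169 other coding genes of that length range had a median of 0.64. The 25 longer ones had a median of 0.42, where 13502 other coding genes had a median of -0.07. Reads in no gene were another, as old control 2 and 3 had the lowest shares of the series and the highest sums of the 50 genes, at 14728.6 and 16824.2 CPM, against 7289.2 CPM in old control 1. The part of transcript length in the result was not tested, and for the reads in no gene the values with the covariate stand above. The 12 neutrophil and granule markers summed to 1095.2 to 2393.3 CPM in old control and 416.9 to 2207.5 CPM in young control libraries, with 1 of 12 called, Prtn3, which rose by 2.23 ± 0.33. T and NK cell markers summed to 99.8 to 263.7 CPM in old control and 86.1 to 122.7 CPM in young control libraries, with Klrb1c higher by 3.03 ± 0.67 and Cd8a at 0 in every old control library. B cell markers summed to 80.2 to 196.5 CPM in old control and 46.3 to 104.4 CPM in young control libraries, with 0 of 8 called by edgeR. Of 5 megakaryocyte markers 4 were tested and Gp9 rose by 1.58 ± 0.40, while 0 of the erythroid, monocyte, mast cell and endothelial markers tested were called by edgeR. The part of these cells in the result was not tested.

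**Figure D5:**
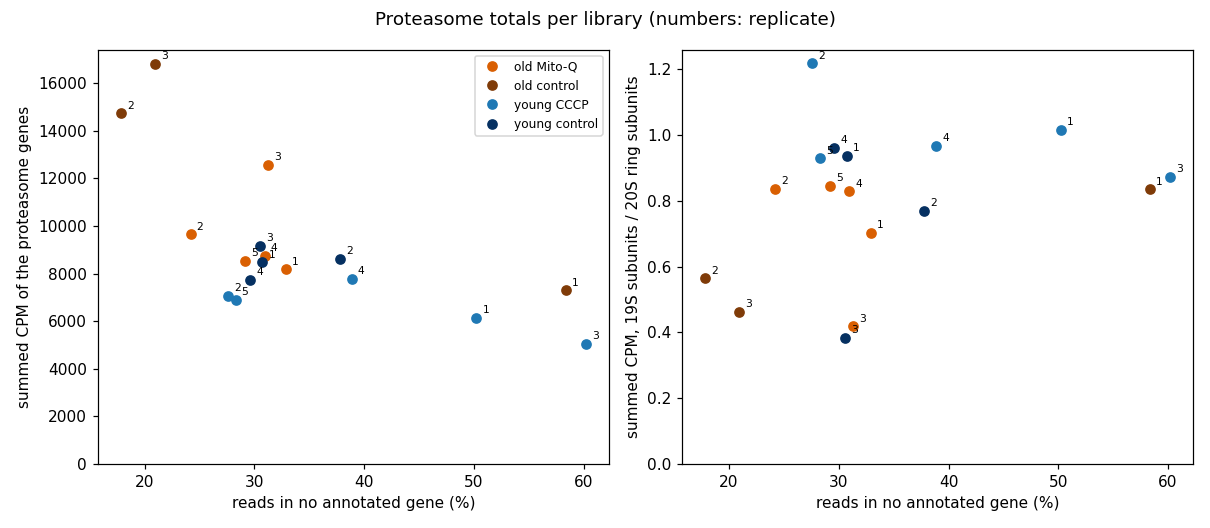
Summed CPM of the 50 proteasome genes and the ratio of summed 19S to summed 20S CPM in each library, against the percentage of reads in no gene, coloured by group. Old control 2 and 3 lie at the upper left of the first panel with 14728.6 and 16824.2 CPM, and old control 1 lies at 58.4% with 7289.2 CPM.

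After Mito-Q, no proteasome gene was called against old controls by edgeR, where 0.526% of all genes were called higher and 0.0163% lower. The values leaned downward: 41 of 50 log2 fold changes were negative, with a median of -0.48, against a median of -0.12 and 44.9% positive over all genes. At an unadjusted p below 0.05, 0 were higher and 10 lower, against 5.12% and 4.93% of all genes. The 10 became 1 without old control 3, against 5.06% of all genes, 2 without old control 2, against 5.7%, 30 without old control 1, against 5.69%, and 24 without Mito-Q 3, against 6.42%. With the share of reads in no gene as a covariate 12 were lower, against 3.27% of all genes, and the median of the 50 was -0.40. DESeq2 called 0 higher and 3 lower, Psmb9, Psmc5 and Psmb3, where it called 0.827% and 0.353% of all genes. Limma-voom with quality weights called 0 higher and 19 lower, where it called 1.97% and 3.09% of all genes. This comparison shares its 3 old control libraries with the one before, so the values of both move together with those libraries. In the split by transcript length used above, the 25 shorter members had a median of -0.557 and 3169 other coding genes of that range -0.465. The 25 longer members had a median of -0.363 and 13502 other coding genes 0.052. The part of transcript length in this comparison was not tested. All 50 genes summed to 8171.0, 9650.6, 12574.2, 8755.3 and 8525.9 CPM in old Mito-Q, against 7289.2, 14728.6 and 16824.2 CPM in old control libraries. The 5 Mito-Q libraries thus lay between old control 1 and old control 2.

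All 3 inducible subunits had negative values after Mito-Q, and none passed the adjusted test. Psmb9 measured 145, 201, 182, 196 and 178 CPM in old Mito-Q against 163, 414 and 496 CPM in old control libraries, with a log2 fold change of -0.99 ± 0.31 and an adjusted p of 0.250. Psmb10 measured 171, 275, 236, 246 and 224 CPM in old Mito-Q against 179.8, 526.5 and 585 CPM in old control libraries (-0.90 ± 0.34, adjusted p = 0.348). Psmb8 measured 237, 286, 190.1, 271 and 234.5 CPM in old Mito-Q against 237, 438 and 598 CPM in old control libraries (-0.80 ± 0.28, adjusted p = 0.328). In each of the 3 genes old control 1 lay among the Mito-Q libraries and old control 2 and 3 above them. Psme2 measured 138, 192, 263, 168 and 129 CPM in old Mito-Q against 148, 405 and 471 CPM in old control libraries (-0.94 ± 0.32, adjusted p = 0.296). Without old control 1, Psmb9 and Psme2 were called lower, at log2 fold changes of -1.40 and -1.36 and adjusted p of 0.0282 and 0.0302, where 0.171% of all genes were called lower.

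The constitutive catalytic subunits gave values of -0.79 ± 0.35 for Psmb5, -0.56 ± 0.32 for Psmb6 and 0.14 ± 0.39 for Psmb7 after Mito-Q. Psmb5 measured 64.2, 94.0, 97.7, 67.2 and 67.1 CPM in old Mito-Q against 83.7, 142 and 179 CPM in old control libraries, with overlap through old control 1. Psmb6 measured 369, 302.5, 488, 390.1 and 297 CPM in old Mito-Q, within the range of the 216, 597 and 817 CPM of old controls. Psmb7 measured 39.2, 31.1, 92.7, 36.1 and 53.8 CPM in old Mito-Q, where Mito-Q 3 was above and the other 4 near the 32.7, 51.8 and 53.4 CPM of old controls. Its sign turned to -0.12 without old control 1, to -0.22 without Mito-Q 3 and to -0.24 with limma-voom. The difference in mean log2 ratio, Mito-Q minus old control, was 0.03 for Psmb8 to Psmb5 (-0.06 to 0.21 with 1 library left out, the highest without Mito-Q 3), -0.47 for Psmb9 to Psmb6 and -0.80 for Psmb10 to Psmb7.

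Over the ring, 13 of 14 values were negative after Mito-Q with a median of -0.51, and over the 19S cap 12 of 17 with a median of -0.14. Without overlap of groups, 1 gene was higher, Psmd1, and 1 lower, Psmc5, against 3.87% and 2.2% of all genes. Psmd1 measured 212, 276, 185.5, 243 and 255 CPM in old Mito-Q against 169, 166 and 150.3 CPM in old control libraries (0.54 ± 0.39, adjusted p = 0.720). Psmc5 measured 116, 157, 114, 143 and 113 CPM in old Mito-Q against 158, 229 and 260.3 CPM in old control libraries (-0.75 ± 0.27, adjusted p = 0.338). Neutrophil and granule markers summed to 2359.1, 985.9, 9740.8, 5712.8 and 14288.0 CPM in old Mito-Q against 1095.2, 2393.3 and 2331.5 CPM in old control libraries. Of these 12 markers 11 had positive log2 fold changes, with a median of 2.33, and 0 were called by edgeR. Erythroid markers summed to 70.5 to 894.3 CPM in old Mito-Q and 97.8 to 342.9 CPM in old control libraries, with 7 of 8 positive and a median of 0.88. Mast cell and basophil markers summed to 229.4, 13.5, 39.7, 14.3 and 202.7 CPM in old Mito-Q against 6.66, 27.6 and 6.19 CPM in old control libraries, with 4 of the 4 tested positive and a median of 4.26, and 0 of either list were called by edgeR. Mito-Q 3 was the highest of its group for 31 of the 50 proteasome genes, against 26.2% of all genes. Mito-Q 5, with the highest sum of neutrophil markers, was the highest for 3 of the 50, against 18.9% of all genes. Mito-Q 2, with the lowest sum, was the highest for 12, against 14.9%. The part of these markers in the result was not tested.

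CCCP in young mice left no proteasome gene called by edgeR, where it called 0.718% of all genes, 0.0652% higher and 0.652% lower. DESeq2 called 0 of the 50, against 0.705% of all genes higher and 0.701% lower, and limma-voom called 0, against 0.294% and 1.17%. The young controls are also the reference of the age comparison. The median log2 fold change of the 50 was -0.26 with 39 negative, while all genes had a median of 0.21 and 58.7% positive. At an unadjusted p below 0.05, 0 were higher and 8 lower, against 6.35% and 4.8% of all genes. The 8 became 3 without young control 3, against 3.14% of all genes, and 5 without CCCP 1, against 4.21%. With the share of reads in no gene as a covariate 4 were lower, against 4.67% of all genes, and the median of the 50 was -0.08. All 14 subunits of the constitutive ring had a negative value, with a median of -0.57, as did 12 of 17 subunits of the 19S cap with a median of -0.05, 2 of 3 inducible subunits with a median of -0.05 and 4 of 5 activators with a median of -0.64. These medians were not tested against each other. In the split by transcript length used above, the 25 shorter members had a median of -0.302 and 3169 other coding genes -0.007. The 25 longer members had a median of -0.218 and 13502 other coding genes 0.212. The part of transcript length after CCCP was not tested. Ring sums were 2262.4, 2363.0, 1844.9, 3021.3 and 2645.9 CPM in young CCCP against 3254.7, 3668.6, 4879.4 and 2920.1 CPM in young control libraries, which overlapped only through CCCP 4 and young control 4.

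The 3 genes of lowest p were ring subunits. Psmb1 measured 218, 209, 158.5, 276 and 263 CPM in young CCCP against 332, 413, 617 and 267 CPM in young control libraries (log2 fold change -0.86 ± 0.32, adjusted p = 0.325). Psma2 measured 182, 181, 214, 236 and 198 CPM in young CCCP against 265, 325, 636 and 287 CPM in young control libraries (-0.90 ± 0.34, adjusted p = 0.330). Psmb2 measured 226, 223, 120.5, 343 and 286 CPM in young CCCP against 314, 353, 783 and 386.5 CPM in young control libraries (-0.94 ± 0.37, adjusted p = 0.353). The Psma2 groups did not overlap, and young control 3, the library with counts for the fewest genes, was the highest in all 3. Without young control 3 the values were -0.60 for Psmb1, -0.56 for Psma2 and -0.56 for Psmb2. Groups did not overlap for 5 genes that were lower (Psma2, Psma3, Psmb4, Psmb7 and Psmd8) and 2 that were higher (Psmd4 and Psmg3), against 2.89% and 1.78% of all genes.

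None of the constitutive catalytic subunits was called after CCCP. Psmb5 measured 61.3, 57.5, 22.8, 64.3 and 62.2 CPM in young CCCP against 58.9, 71.1, 37.6 and 50.5 CPM in young control libraries, with CCCP 3 far below the others of its group (-0.02 ± 0.32). Psmb6 measured 225, 275, 189, 340.2 and 278 CPM in young CCCP against 312, 317, 309 and 289 CPM in young control libraries (-0.23 ± 0.29). Psmb7 measured 22.7, 28.3, 35, 39.9 and 40.5 CPM in young CCCP, all below the 42.0, 46.4, 62.9 and 43.0 CPM of young controls (-0.55 ± 0.35, adjusted p = 0.609).

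Of the inducible subunits, Psmb8 measured 166, 200.5, 312, 209.6 and 202 CPM in young CCCP against 201, 215, 185 and 216 CPM in young control libraries (0.09 ± 0.27). Psmb9 measured 155, 178, 78.5, 166 and 191 CPM in young CCCP against 150.3, 164, 163 and 159 CPM in young control libraries (-0.05 ± 0.29). Psmb10 measured 138.5, 192, 80.5, 196 and 105 CPM in young CCCP against 203, 203, 271 and 182 CPM in young control libraries (-0.59 ± 0.31). CCCP 3, with 60.2% of its reads in no gene, was the highest of its group for Psmb8 and the lowest for Psmb9 and Psmb10. The difference in mean log2 ratio, CCCP minus young control, was 0.14 for Psmb8 to Psmb5, 0.14 for Psmb9 to Psmb6 and -0.10 for Psmb10 to Psmb7. Without CCCP 3 these were -0.28, 0.26 and 0.12, so that 2 of the 3 turned sign. Neutrophil and granule markers summed to 9663.1, 768.8, 13970.8, 16445.0 and 5037.3 CPM in young CCCP against 2207.5, 446.2, 416.9 and 600.8 CPM in young control libraries, with Elane higher by 7.50 ± 1.45 and the other 11 of 12 not called. All 12 neutrophil and granule log2 fold changes were positive, with a median of 3.55. Erythroid markers summed to 143.3 to 1391.0 CPM in young CCCP and 66.7 to 245.8 CPM in young control libraries, monocyte and macrophage markers to 26.9 to 227.5 and 10.2 to 65.1 CPM, and endothelial and stroma markers to 79.0 to 247.9 and 56.4 to 90.1 CPM. Their log2 fold changes were positive for 8 of 8, 8 of 8 and 7 of 8, with medians of 1.19, 1.10 and 1.54, and 0 were called by edgeR. The part of these markers in the result was not tested.

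Old Mito-Q libraries set against young controls also gave no called proteasome gene, where edgeR called 0.13% of all genes higher and 0.0122% lower, while DESeq2 called 0 of the 50, against 0.327% and 0.142% of all genes, and limma-voom 0, against 0.469% and 0.391%. At an unadjusted p below 0.05, 1 was higher and 0 lower, against 3.8% and 4.09% of all genes. That gene was Psmg1, at 111, 105, 159.7, 101 and 100.4 CPM in old Mito-Q against 59.4, 78.03, 60.7 and 65.1 CPM in young control libraries. It was the 1 gene of the 50 whose groups did not overlap, against 1.65% of all genes, with a log2 fold change of 0.81 ± 0.29 and an adjusted p of 0.544. The next by p were Psmb5, at 64.2, 94.0, 97.7, 67.2 and 67.1 CPM in old Mito-Q against 58.9, 71.1, 37.6 and 50.5 CPM in young control libraries (0.52 ± 0.33, adjusted p = 0.793), and Psmd10, at 49.6, 76.2, 116, 51.6 and 57.2 CPM against 52.0, 44.2, 42.2 and 56.3 CPM (0.52 ± 0.34, adjusted p = 0.809), both with overlap. Against old controls the same Mito-Q libraries gave -0.57 ± 0.31 for Psmg1. Over all 50 the median was 0.19 with 39 positive, against 0.01 and 50.3% over all genes. All 12 neutrophil and granule markers had positive values, with a median of 2.82 and 1 called by edgeR. Erythroid markers were positive for 7 of 8 and mast cell and basophil markers for 4 of the 4 tested, with medians of 0.54 and 2.42. Positive values numbered 5 of 8 monocyte, 4 of 8 endothelial, 3 of 6 T and NK cell, 2 of 4 megakaryocyte and 2 of 8 B cell markers tested. The part of these markers in the result was not tested.

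Psmb11, the thymic catalytic subunit, was read in few libraries. Its raw counts were 162 in young CCCP 3, 111 in old control 1, 21 in young control 2, 13 in old control 2 and 10 in old Mito-Q 1, and at most 1 in the other 12 libraries. Both libraries with over 100 counts were those with the largest shares of reads in no gene. Psma8, the testis form of Psma7, was read in every library, at 19.2 to 64.4 CPM in old Mito-Q, 11.8 to 50.8 CPM in old control, 12.0 to 47.6 CPM in young CCCP and 16.6 to 39.3 CPM in young control libraries.

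Genes that serve the proteasome but carry other symbols had a median of the other sign in old controls, a difference that was not tested. Over 30 listed genes, 12 values were positive in old controls against young controls, with a median of -0.24, and the medians were 0.30 after Mito-Q with 20 positive and -0.17 after CCCP with 10 positive. Pomp, the chaperone that completes the 20S core, measured 215, 388 and 577 CPM in old controls against 143, 181, 331 and 153 CPM in young controls (0.96 ± 0.36, adjusted p = 0.212). Values of the ubiquitin shuttle Rad23b were -1.17 and of the segregase Vcp -0.74, neither of them called. The transcription factors of proteasome genes Nfe2l1 and Nfe2l2 had -0.55 and 0.18 in old controls, 0.52 and 0.32 after Mito-Q and 0.87 and -0.40 after CCCP, none called.

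None of 12 genes of MHC class I peptide processing was called by edgeR in any comparison, at medians of 0.02 in old control versus young control, -0.05 after Mito-Q and -0.11 after CCCP. At an unadjusted p below 0.05, Erap1, which trims peptides in the endoplasmic reticulum, had -1.23 in old controls and 0.83 after Mito-Q, and after CCCP B2m, the light chain of MHC class I, had -1.39 and the transcription factor Irf1 -0.55. The peptide transporter genes Tap1 and Tap2, of which Tap1 neighbours Psmb9, had 0.08 and -0.04 in old controls, -0.10 and -0.01 after Mito-Q, and 0.91 and 0.96 after CCCP. B2m measured 2903.3, 8415.4 and 10983.1 CPM in old controls against 3238.7, 3664.2, 13639.8 and 3145.8 CPM in young controls, with old control 1 low and young control 3 high, as in the ring sums.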

How the data were processed

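RNA of sorted HSCs was sequenced in 17 libraries, grouped by the age and treatment in the labels. The authors deposited whole-number read counts by Ensembl gene ID, without normalization. Trim Galore and STAR 2.7 with GRCm38 are named in the submitters' processing notes; the counter, annotation release and strand setting are not given in the sources used here. Entries for reads in no gene were kept out of library sizes and tests, and with ambiguous, multiply aligned and other unassigned reads they made up 37.7% to 76.2% of reads per library. GENCODE M21 gave names for 54723 of 54838 gene IDs.

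The counts of all 17 libraries were fitted in edgeR 4.0.16 (R 4.3.3) on group means alone, scaled by TMM and filtered by filterByExpr (minimum count 10), with robust quasi-likelihood dispersions. The 24523 genes left each had a two-sided quasi-likelihood test, with Benjamini-Hochberg adjustment over all of them, and called at an adjusted p below 0.05. CPM carry TMM factors. The procedure was tested on simulated data. Alternatives were other scalings and filters, DESeq2 1.42.0, limma-voom (limma 3.58.1), a fit on only the groups compared, a replicate block and each library left out. Replicates were compared for duplicates, and every pair differed by a chi-square of 20.9 or more for each degree of freedom.

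The members and gene lists were chosen with earlier results of these data known. Values in every library are given for the called genes, the 3 genes of smallest p in each comparison and the 6 catalytic subunits, and those of Psmc5, Psmd1, Psmd4, Pomp and B2m were chosen after their values were seen. Of the list of genes that serve the proteasome, 1 result is not reported here.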

Additional observations from a re-analysis of the deposited data

Results flagged for a closer look

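Of 63 values tested for a library standing apart from its group, 9 did, where chance flags about 1 in 20. Old Mito-Q 3 was the outlying library in 5 of them. It had 758.9 CPM of Psma2 against 269 to 371 in the other Mito-Q libraries, 707 CPM of Psmb1 against 309 to 408, 981.3 CPM of Psmb2 against 380.5 to 504, 159.7 CPM of Psmg1 against 100.4 to 111, and a summed ring level of 6903.4 CPM against 3454.6 to 3896.0. Young control 3 had 635.8 CPM of Psma2 against 265 to 325 in the other young controls and 783.3 CPM of Psmb2 against 314 to 386.5. Young CCCP 3 had 22.75 CPM of Psmb5 against 57.5 to 64.3 in the other CCCP libraries. With it came a log2 ratio of Psmb8 to Psmb5, per kb of merged exons, of 1.866 against -0.476 to -0.108. Groups of 3, such as the old controls, were not tested for outlying libraries.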

How the results depend on the processing

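Of the 50 genes, 2 were called in old control versus young control. The count was 5 with DESeq2-type size factors, 7 with upper-quartile factors, 1 with no filter, 15 with DESeq2, 29 with limma-voom (28 higher, 1 lower), 0 with only the groups compared, 1 with the replicate block, 8 without young CCCP 3 and young control 3, and, in an alternative chosen after seeing the data, 16 without young CCCP 3 and old control 1. Leaving out 1 library gave 0 to 15, with the 15 without old control 1. Over all genes, the main 1.69% called became 1.72% with DESeq2-type factors, 1.74% with upper-quartile factors and 0.925% with no filter. It became 1.09% with only the groups compared and 1.65% with the replicate block. Without young CCCP 3 and young control 3 it was 5.43%, and without young CCCP 3 and old control 1 it was 5.03%. The 415 calls became 1432 of 47061 genes with DESeq2, or 3.04%, and 3279 of 24523 with limma-voom, or 13.4%. With 1 library left out calls over all genes were 0.434% to 2.54%, lowest without old control 2 and highest without old control 1. For Mito-Q the count of 0 became 3 with DESeq2, 19 with limma-voom and 6 without young CCCP 3 and old control 1. Calls over all genes were then 1.18%, 5.05% and 1.48%, against 0.542%. With 1 library left out the count was 0 to 2, with the 2 without old control 1, where 0.527% of all genes were called. Counts for CCCP and for old Mito-Q versus young control stayed at 0 in all alternatives. The cause of these changes was not tested.

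Psmg1 in old controls had log2 fold changes of 0.93 to 1.74 over 19 alternatives and an adjusted p of 0.000479 to 0.429, below 0.05 in 13. Psme2 had 1.06 to 1.78 and 9.19e-05 to 0.391, below 0.05 in 11. Psmb7 turned sign in old control versus young control with upper-quartile factors (0.0188), limma-voom (0.18), without young CCCP 3 and young control 3 (0.0724), without young CCCP 3 and old control 1 (0.11) and with 1 library left out (-0.21 to 0.17). For Mito-Q it turned with limma-voom (-0.24), without young CCCP 3 and old control 1 (-0.0582) and with 1 library left out (-0.22 to 0.28). The median of the 50 was positive for old controls (0.35 to 0.92) and negative for Mito-Q (-0.85 to -0.23) and CCCP (-0.33 to -0.08) in all alternatives. Upper-quartile factors moved the median of all genes in old controls to 0.28 and library totals that of CCCP to 0.33, against 0.17 and 0.21. The median of all genes turned to -0.22 with limma-voom, -0.35 without old control 1, -0.39 without young CCCP 3 and old control 1 and -0.12 with the no-gene share as covariate for old controls. For Mito-Q it turned to 0.07, 0.31, 0.36 and 0.15 in the same settings, against -0.12, and for CCCP to -0.01 with the covariate. The median ring level in young controls was 165 CPM per kb with the longest transcript. The Psmb8 to Psmb5 difference in old controls was -0.43 to -0.20 with 1 library left out.

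Replicate numbers pair no libraries by the labels, and same-numbered libraries correlated at -0.11 to 0.123 in their deviations from group means. With the replicate block, 1 of the 50 was called in old controls, against 1.65% of all genes, and 0 in the other comparisons. Calls over all genes there were 0.53% for Mito-Q, 0.685% for CCCP and 0.163% for old Mito-Q versus young control.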
